A study of Homo sapiens with 2 samples.

Results

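Metallothionein expression was examined in PC3, a prostate cancer cell line derived from a bone metastasis, after transient knockdown of the transcriptional coactivator SUB1. The members are the probes for MT1A, MT1E, MT1F, MT1G, MT1H, MT1X and MT2A, taken by the gene name printed in the scanner files, and these 7 genes are read by 13 of the 41000 gene probes on the Agilent array, on which 30484 gene names occur. One dual-colour array compared PC3 cells treated with SUB1 siRNA 1 (labelled with Cy5) with cells treated with non-targeting (Non-T) siRNA (labelled with Cy3), and a second array did the same for SUB1 siRNA 2, with RNA taken 72 h after the first transfection. There was 1 array for each siRNA and no dye swap, so no ratio has a biological replicate, and an effect of the siRNA and a dye bias cannot be told apart in a ratio of Cy5 over Cy3. The sources used here do not say whether 1 Non-T extract served both arrays, and all cells received a siRNA duplex with a lipid reagent.

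Metallothioneins are small, cysteine-rich proteins that bind zinc and copper, buffer these metals in the cell and also bind toxic metals such as cadmium. Their genes lie in a cluster on chromosome 16 and are switched on by zinc through MTF1, a transcription factor that senses the metal and binds metal response elements in their promoters. Glucocorticoids also induce them. The normal prostate is known for a high zinc content, which is lost in prostate cancer.

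All 13 member probes lay between positions 55200782 and 55275470 of chromosome 16 in build hg18, the build named in the scanner files, a stretch of 74.7 kb. The coding regions of these genes are so alike that a probe can bind RNA of several members, and the design itself records this. Of the 13 probes, 4 list RefSeq transcripts of more than 1 family gene. These were the single MT1A probe (also MT1M), both MT1H probes (1 with MT1X and MT1L, the other with MT1M) and 1 of the 2 MT1X probes (also MT1H and MT1A). The 3 MT2A probes fell within 116 bases of each other, and the 2 MT1X probes overlapped within 72 bases, so probes of the same gene are not independent measurements. The MT1H probes, in contrast, were placed 33606 bases apart. One was at chr16:55228291-55228350, between the probes for MT1JP and MT1A, and the other was at chr16:55261957-55262342. The values below are therefore those of a family of similar transcripts, read through labelled probes.

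The upstream regions show what the genes share. RefSeq's promoter table (GRCh38.p14) matched 3 of the 7 members, MT2A, MT1H and MT1X, and the 250 bases before the start of each are printed because metal response elements are the known control sites of this family. Capitals mark every match, on either strand, to the core of the metal response element, searched as TGCGCNC and TGCACNC.
MT2A (chr16:56608334-56608583, plus strand): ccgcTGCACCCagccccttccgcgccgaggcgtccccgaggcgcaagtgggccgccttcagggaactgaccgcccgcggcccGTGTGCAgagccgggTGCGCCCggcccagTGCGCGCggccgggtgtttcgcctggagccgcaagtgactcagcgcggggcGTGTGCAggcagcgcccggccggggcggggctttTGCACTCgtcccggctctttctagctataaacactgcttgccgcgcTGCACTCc
MT1H (chr16:56669564-56669813, plus strand): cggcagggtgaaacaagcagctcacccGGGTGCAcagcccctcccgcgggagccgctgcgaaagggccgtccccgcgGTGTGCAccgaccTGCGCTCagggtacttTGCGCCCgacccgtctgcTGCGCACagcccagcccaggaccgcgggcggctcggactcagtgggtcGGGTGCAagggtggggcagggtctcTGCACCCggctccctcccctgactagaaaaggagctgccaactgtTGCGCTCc
MT1X (chr16:56682220-56682469, plus strand): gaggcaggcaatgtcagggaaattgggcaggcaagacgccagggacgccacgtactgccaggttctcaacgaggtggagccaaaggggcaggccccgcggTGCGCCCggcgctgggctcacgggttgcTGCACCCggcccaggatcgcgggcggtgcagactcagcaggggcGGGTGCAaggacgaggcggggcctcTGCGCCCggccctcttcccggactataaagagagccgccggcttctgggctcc

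The core was found 7 times upstream of MT2A, 8 times upstream of MT1H and 4 times upstream of MT1X. At least 1 core was present in 24.8% of the 35116 promoter windows of this length in the table, at least 4 in 0.37%, at least 7 in 0.0313% and at least 8 in 0.0171%. A core of the antioxidant response element, searched as TGACNNNGC on both strands, was found once each in MT2A and MT1X and not in MT1H, and in 10.9% of all windows. These are matches of letters, and no binding was measured.

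The arrays were checked first with the targeted gene and with PC3 markers. Ratios are given as log2 of the signal in SUB1-depleted cells over that in Non-T cells. The 4 SUB1 probes lay between -3.75 and -1.81 (siRNA 1) and between -3.50 and -1.57 (siRNA 2). At the brightest of them 10.2% and 10.4% of the Non-T signal was left. All 6 epithelial and PC3 markers looked at (KRT8, KRT18, EPCAM, VIM, CD44 and PLAU) were well above background in Non-T cells. Among genes expected to be low, PTPRC was not well above background. KLK2 and PECAM1 had a probe above background at an intensity of at most 148, and 1 of 3 KLK3 probes reached 18634. No spot was saturated. A probe was kept if it stood well above background on each array in Cy3 or Cy5, which left 25673. Among the 209 kept probes spotted 10 times, the log2 ratio varied between spots with a median SD of 0.078 (siRNA 1 array) and 0.074 (siRNA 2 array). Every member probe was spotted once, so this SD, taken from other probes, is the only technical error available for it. It is a spread within 1 array and leaves out error from labelling, hybridization and normalization.

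Metallothionein signal was higher in siRNA 1-treated than in Non-T cells, and lower in siRNA 2-treated than in Non-T cells, although with median centring in place of loess 4 of the 12 usable probes were no longer lower. After loess the siRNAs were on opposite sides of the control for MT1A, MT1E, MT1F, MT1G, MT1H, MT1X and MT2A. Of the 13 member probes, 12 were kept, at least 1 for each gene, and the second MT1E probe was not well above background in any channel. With siRNA 1 the 12 probes had a median log2 ratio of 0.30 (range 0.012 to 0.68), and all 12 were above 0, as were 52.5% of all kept probes. With siRNA 2 the median was -0.54 (range -0.68 to -0.15), and all 12 were below 0, as were 47.6% of all kept probes. When the arrays were centred on their median in place of loess normalization, all 12 stayed above 0 with siRNA 1 and 8 of 12 were below 0 with siRNA 2. Under that centring 66.4% (siRNA 1) and 65.3% (siRNA 2) of all kept probes were above 0. After loess the median of all kept probes was 0.014 with siRNA 1 and 0.015 with siRNA 2.

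**Figure D1:**
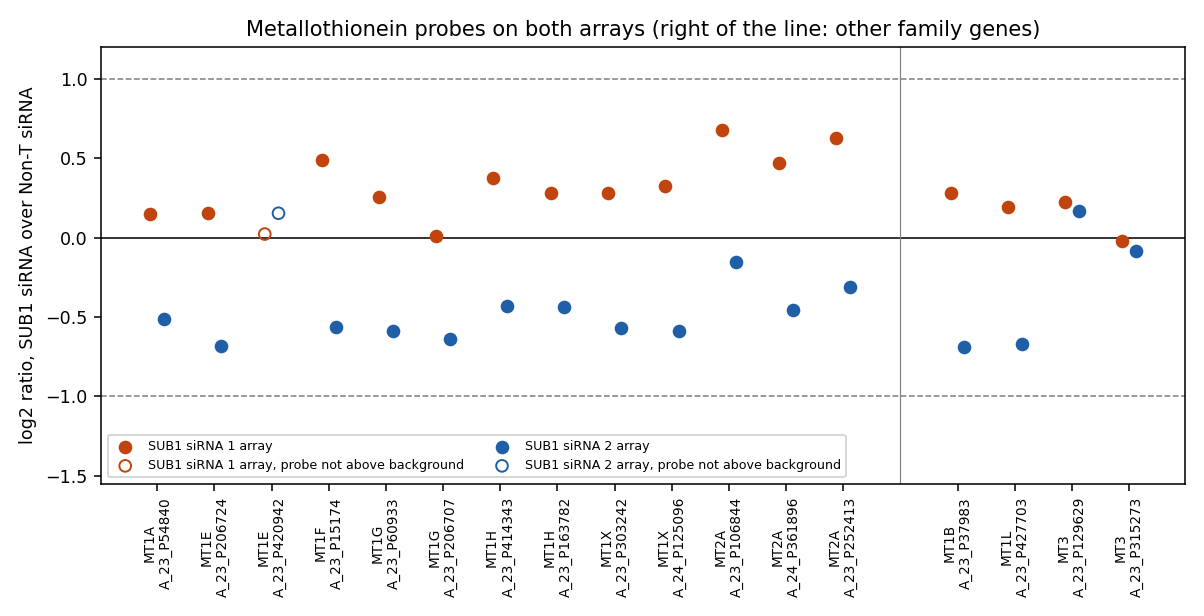
Log2 ratio to Non-T cells (vertical axis) for each metallothionein probe (horizontal axis), with 1 point per array and dashed lines at a 2-fold change. Filled points are kept probes, open points the MT1E probe that was not above background, and the 4 probes right of the vertical line belong to MT1B, MT1L and MT3. The 12 kept member probes lie between 0.012 and 0.68 with siRNA 1 and between -0.68 and -0.15 with siRNA 2, and all of them stay within the dashed lines.

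MT2A, which encodes the major metallothionein-2 protein, showed the pattern at each of its 3 probes. At the brightest probe the deposited spot intensity was 57420 in Non-T and 135502 in siRNA 1-treated cells on the first array, and 63724 in Non-T and 85785 in siRNA 2-treated cells on the second. At the next probe it was 61292 and 125243 on the first array and 67223 and 73182 on the second. Cy5 thus exceeded Cy3 on both arrays before normalization, and by more with siRNA 1. After loess normalization the 3 probes had log2 ratios of 0.68, 0.47 and 0.63 with siRNA 1, a 1.39-fold to 1.60-fold higher signal. With siRNA 2 they had -0.15, -0.45 and -0.31, a 1.11-fold to 1.37-fold lower signal that did not hold under median centring.

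MT1F, measured by 1 probe that lists no other RefSeq gene, had the widest separation between the siRNAs. Its intensity was 1491 in Non-T and 2562 in siRNA 1-treated cells, and 1273 in Non-T and 1039 in siRNA 2-treated cells. The log2 ratio was 0.49 (siRNA 1) and -0.56 (siRNA 2), so that the ratio with siRNA 1 was 2.08-fold that with siRNA 2. MT1F was the only member past 2-fold in this comparison of siRNAs.

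MT1X had intensities of 28844 in Non-T and 49415 in siRNA 1-treated cells, and 29606 in Non-T and 28317 in siRNA 2-treated cells, at the probe that also lists MT1H and MT1A. Its other probe, which lists MT1X alone, had 18878 and 32519 on the first array and 16480 and 15000 on the second. Both gave nearly the same log2 ratios, 0.28 and 0.32 with siRNA 1 and -0.57 and -0.59 with siRNA 2. The MT1H probes also gave similar ratios, but they lie far apart and each lists other family genes. They may therefore not be readings of MT1H alone. The probe at chr16:55228291-55228350 had 0.38 with siRNA 1 and -0.43 with siRNA 2, and the probe at chr16:55261957-55262342 had 0.28 and -0.43.

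MT1G was the member with the least agreement between its probes on the siRNA 1 array. Its brighter probe had intensities of 32414 in Non-T and 54863 in siRNA 1-treated cells and of 27943 and 26300 on the siRNA 2 array, and its log2 ratios were 0.26 and -0.59. The dimmer probe had 3990 and 5066 on the first array and 3393 and 2742 on the second, and its log2 ratios were 0.012 and -0.64. The value of 0.012 was the only 1 of the 12 within the spot SD of 0.078, so MT1G was higher with siRNA 1 at 1 probe only, and lower with siRNA 2 at both.

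MT1A and MT1E completed the group. MT1A had intensities of 18061 in Non-T and 27439 in siRNA 1-treated cells and of 16099 and 15493 on the siRNA 2 array, giving log2 ratios of 0.15 and -0.51. With Feature Extraction's processed signals the siRNA 1 value was 0.021, inside the spot SD. MT1E had 11584 and 17235 on the first array and 9395 and 7748 on the second, giving 0.15 and -0.68. With siRNA 1 these were, after the dimmer MT1G probe, the ratios nearest to 0, and with siRNA 2 MT1E had the lowest ratio of all members. Its second probe had an intensity of 92.5 in Non-T and 73.0 in siRNA 1-treated cells and of 78.5 and 66.5 on the siRNA 2 array, not well above background in any of them, and has no usable ratio.

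With loess, no member reached the 2-fold change that the study used as its rule. With median centring 2 of 12 member probes did so with siRNA 1. Both were MT2A probes, the brightest at 1.18, and they lie within 116 bases of each other, so they stand for 1 gene. The share of all kept probes past 2-fold with median centring is not given here. With loess, 0.195% of all kept probes were higher and 0.557% lower by 2-fold or more with siRNA 1 (0.752% together). The shares were 0.526% and 0.923% with siRNA 2 (1.45% together). When the mean log2 ratio of the siRNAs was tested against 0 in limma, with Benjamini-Hochberg adjustment over all kept probes, 0 of 12 member probes had an adjusted p under 0.05, against 0.0117% of all kept probes (3 probes, all of SUB1). The smallest adjusted p among members was 0.371, for the dimmer MT1G probe (mean -0.31, standard error 0.177). At an unadjusted p under 0.05 there were also 0 of 12, against 21.2% of all kept probes. Opposite ratios cancel in this mean, which was between -0.31 and 0.26 for the members. How much the control varies does not enter this test. Adjusted p-values over the alternatives had a smallest value among members between 0.108 and 0.527.

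The arrays were then compared by channel, since a difference between the siRNAs may lie in the control RNA. After scaling of the mean intensities between arrays (Aquantile, which leaves ratios as they are), the Cy5 signal was lower on the siRNA 2 than on the siRNA 1 array at all 12 member probes, as at 49.8% of all kept probes, with a median difference of -0.71 (log2, range -1.08 to -0.46). The Cy3 signal, from Non-T cells, differed by a median of 0.020 (range -0.099 to 0.48), and 53.3% of all kept probes had a Cy3 difference at least as large in size as the members' median size. For the 9 MT1 probes the median Cy3 difference was 0.00090 and the median Cy5 difference -0.79, with the MT1X probe shared with MT1H and MT1A highest in Cy3, at 0.26. For the 3 MT2A probes, the Cy3 difference was 0.31 to 0.48 and the Cy5 difference -0.62 to -0.46. At MT2A, therefore, both channels moved with the difference between the siRNAs, and the part of the Non-T RNA in it was not tested. Ordered by level, siRNA 1-treated cells were above both Non-T measurements at 12 of 12 member probes, against 44.5% of all kept probes. The margin over the higher Non-T level was smaller than the spot SD at 2 of them. These were the dimmer MT1G probe (12.018 against 12.007) and the MT1X probe shared with MT1H and MT1A (15.231 against 15.204). Cells treated with siRNA 2 were below both Non-T measurements at 10 of 12, against 40.4%, the exceptions being 2 MT2A probes. The difference between siRNAs was larger in size than the Cy3 difference at all 12, against 72% of all kept probes.

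**Figure D2:**
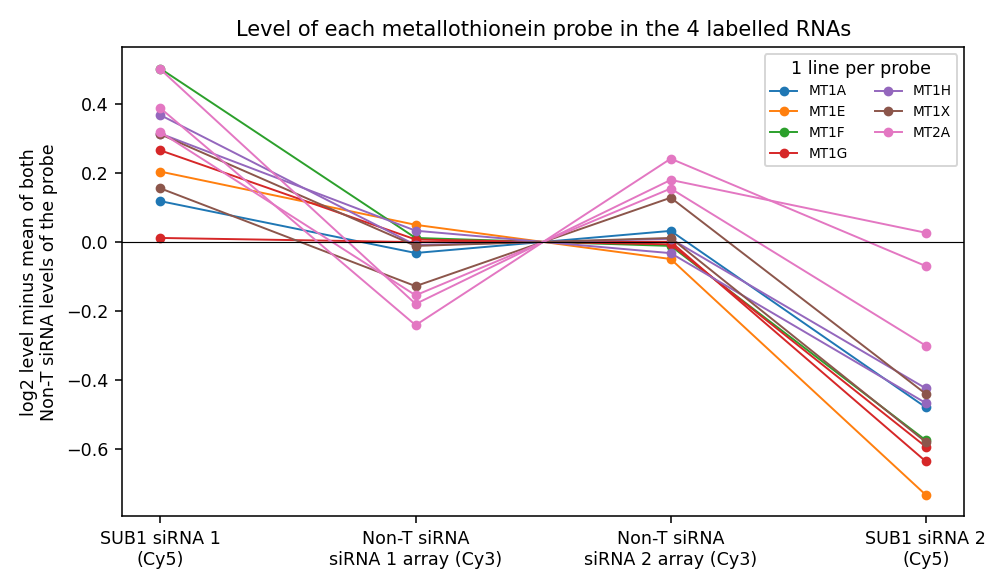
Level of the 12 kept member probes (1 line each, coloured by gene) in the 4 labelled RNAs, as log2 intensity after normalization minus the mean of the probe's own Non-T levels, so that the Non-T values mirror each other by construction. The Non-T values of the MT1 probes lie close to 0, those of the 3 MT2A probes differ by 0.31 to 0.48 between arrays, and the siRNA 2 values lie below the siRNA 1 values for every probe.

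Subtracting the siRNA 1 from the siRNA 2 log2 ratio left a median of -0.84 over the 12 member probes (range -1.05 to -0.65), a 1.79-fold difference. It was below 0 at all 12, as at 50% of all kept probes. Of all kept probes, 0.993% had a difference of -0.84 or lower, and 0.541% were at least 2-fold lower with siRNA 2 than with siRNA 1, against 1 of 12 member probes. With 1 array for each siRNA this difference has no test.

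The members are among the bright probes, and loess normalization bears on them more than on others. Before it, the 12 probes had a median log2 ratio of Cy5 over Cy3 of 0.78 (siRNA 1 array) and -0.059 (siRNA 2 array). Loess lowered them by a median of 0.48 on both arrays, against 0.18 for all kept probes on each array. The correction was alike on both arrays, so that the distance between the siRNAs hardly depended on it, while the position of each siRNA relative to Non-T did.

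**Figure D3:**
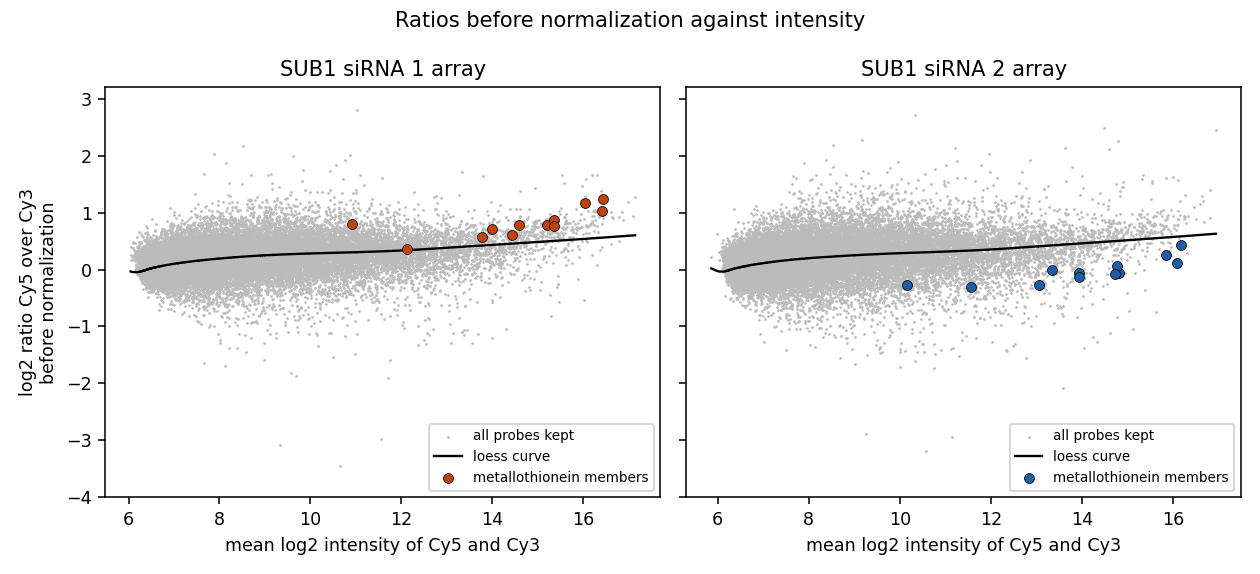
Log2 ratio of Cy5 over Cy3 before normalization (vertical axis) against mean log2 intensity (horizontal axis) on each array, with all 25673 kept probes in grey, the loess curve as a black line and the 12 member probes as coloured points. The members lie on or above the curve on the siRNA 1 array and below it on the siRNA 2 array, and the curve climbs with intensity on both.

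Under the 10 alternatives tried, the median of siRNA 2 minus siRNA 1 stayed between -0.85 and -0.83. Keeping outlier spots and the stricter filter could not change it, since no member spot was flagged and every kept member probe was well above background in each channel. The siRNA 1 median alone lay between 0.21 and 0.72 and the siRNA 2 median between -0.61 and -0.11. At MT2A and at the brighter MT1H probe the direction with siRNA 2 depended on the scaling. With median centring the brightest MT2A probe had 1.18 with siRNA 1 and 0.37 with siRNA 2. The brighter MT1H probe had 0.013 with siRNA 2, inside the spot SD. The separation of the siRNAs was thus kept, and whether MT2A was below Non-T with siRNA 2 was not.

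**Figure D4:**
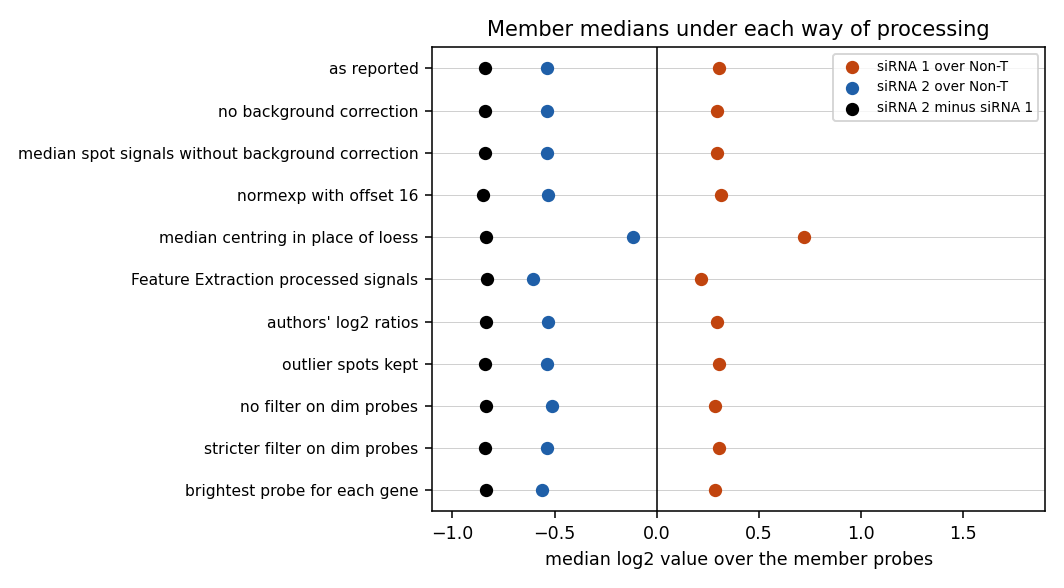
Median over the member probes (horizontal axis, log2) of the ratio with siRNA 1, the ratio with siRNA 2 and their difference, for the processing as reported and 10 alternatives (vertical axis). The difference stays between -0.85 and -0.83 in every row, whereas median centring moves both ratios up, to 0.72 and -0.11.

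Other metallothionein genes on the array fell into 2 kinds. MT1B (probe at chr16:55244449-55244508) had log2 ratios of 0.28 (siRNA 1) and -0.69 (siRNA 2), and the brighter MT1L probe, designed to a gene or pseudogene of the cluster, had 0.19 and -0.67. Both were thus on the same sides of 0 as the members. MT3, a member best known from the nervous system, was not, with 0.23 and 0.17 at its brighter probe (intensity 1394 in Non-T and 1981 in siRNA 1-treated cells, 1187 and 1617 on the siRNA 2 array) and -0.018 and -0.085 at its dimmer one. The dimmer probe was near background, with intensities of 117 and 88.2 on the first array and 97.5 and 78.7 on the second. MT1M, MT1JP, MT4 (known from squamous epithelia) and the other MT1L probe were not well above background in any channel.

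MTF1 and the zinc transporters were examined as the genes that sense and move zinc. MTF1, the activator of metallothionein genes, had log2 ratios of 0.69 (siRNA 1) and 0.20 (siRNA 2) at its 1 kept probe (adjusted p = 0.212 in limma over genes). SLC30A1, a zinc exporter that MTF1 also activates, had 0.83 and 0.25 at its brighter probe and 0.19 and 0.070 at its dimmer one (adjusted p = 0.189 for the brighter). Both were higher with siRNA 1 than with siRNA 2, as the metallothioneins were, but they stayed above 0 with siRNA 2. SLC39A10, a zinc importer named here after its values were seen, had -0.56 and -0.29. The importer SLC39A1 had -0.37 with siRNA 1 and -1.09 with siRNA 2, the only zinc gene past 2-fold, and SLC39A13 had 0.39 and 0.51.

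Over the list of 25 zinc genes, 19 were measured, with medians of 0.014 (siRNA 1) and 0.048 (siRNA 2), against 0.024 for all 19218 genes with both siRNAs. With siRNA 1, 12 of the 19 were above 0 (54.1% of all genes), and with siRNA 2, 10 of the 19 (53.6%). None was at least 2-fold changed with siRNA 1 and 1 was with siRNA 2, against 0.817% and 1.68% of all genes. In limma, 0 of the 19 had an adjusted p under 0.05 (0.0052% of all genes) and 6 an unadjusted p under 0.05 (20.9% of all genes).

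**Figure D5:**
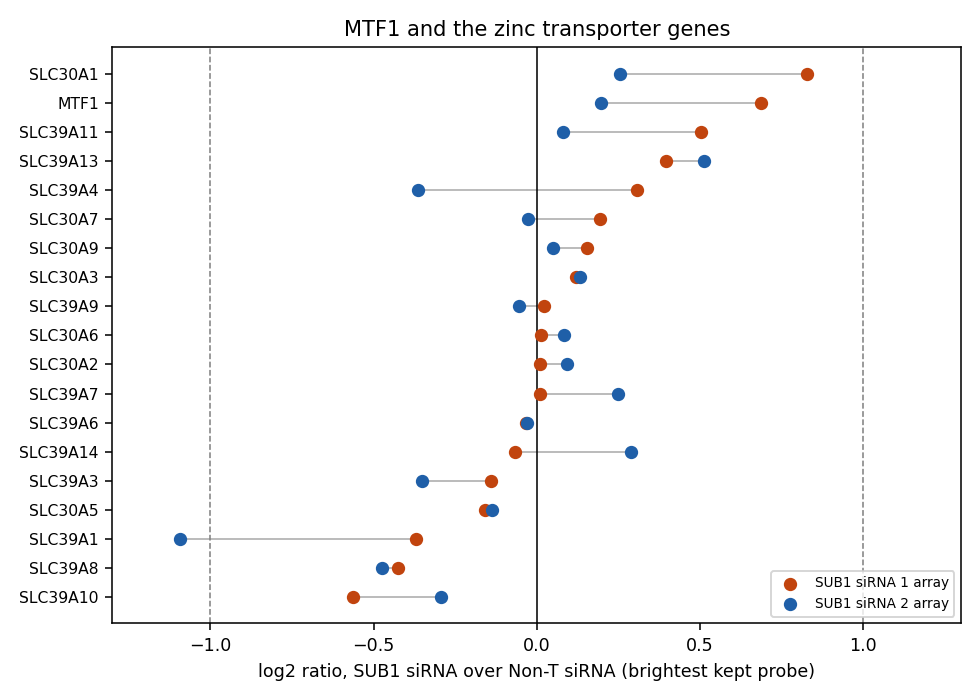
Log2 ratio to Non-T cells (horizontal axis) for the 19 measured zinc genes, MTF1 and zinc transporters (vertical axis), 1 point per array joined by a line, with dashed lines at a 2-fold change. SLC30A1 and MTF1 lie highest with siRNA 1, at 0.83 and 0.69, and SLC39A1 with siRNA 2, at -1.09, is the only point past a dashed line.

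Genes of copper handling, oxidative stress and the glucocorticoid response were read in the same way. Among 12 measured genes of copper handling the medians were 0.082 (siRNA 1) and -0.059 (siRNA 2), and the largest mean ratios were those of the transporter SLC31A2 (-0.37 and -0.70) and of the cytochrome c oxidase assembly genes COX11 (-0.65 and -0.41) and SCO2 (0.39 and 0.46). Among 17 genes of the NRF2 oxidative stress response the medians were 0.035 and -0.13. FTH1, the ferritin heavy chain, had 0.82 and 0.72, the heme oxygenase HMOX1 had 0.50 and 0.67, and thioredoxin (TXN) had -0.37 and -0.48. Among 10 genes of the glucocorticoid response the medians were -0.21 and -0.0038. CEBPD had 0.58 and 1.05, the only gene of these 3 lists past 2-fold, ERRFI1 had -0.46 and -0.57 and PER1 had -0.47 and -0.23. No gene of the 3 lists had an adjusted p under 0.05 in limma, and 6, 5 and 3 genes, in the order given, had an unadjusted p under 0.05 (6 of 12, 5 of 17 and 3 of 10, against 20.9% of all genes).

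The genes whose pair of ratios came closest to the median pair of the members (0.28 with siRNA 1 and -0.56 with siRNA 2) were sought over both arrays, by Euclidean distance. Outside the family, 25 of 19208 genes lay within a distance of 0.1. The nearest were COLGALT2 (0.31 and -0.55, distance 0.027), CHORDC1 (0.31 and -0.55, 0.030), WBP1 (0.25 and -0.58, 0.036) and the unnamed probe targets A_24_P230486 (distance 0.036) and BC005884 (distance 0.052). A likeness over 2 arrays is weak, and nothing is read from it.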

How the data were processed

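The authors quantified both arrays with Agilent Feature Extraction 9.5.1.1, and deposited spot intensities in both channels with local background, and the processed intensities of that software. They also deposited log2 ratios normalized by loess on each array with agilp. The columns had medians of -0.00538 and -0.0068, and correlated with log2 ratios from median spot signals at 0.958 and 0.970 across probes (slopes 1.01 and 1.02). With the log2 ratios reported here they correlated at 0.925 and 0.943. Direction, scale and centring were taken as settled.

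Mean spot signals were background-corrected by normexp (offset 50), control spots and outlier-flagged spots (112 and 100) were left out, ratios were normalized by loess (span 0.3), and spots of a probe were averaged in limma 3.58.1 under R 4.3.3. The filter on dim probes required a share of 0.5 of a probe's spots above background in Cy3 or Cy5, on each array. Every member probe was used; other genes were named through RefSeq and represented by their brightest kept probe. A 2-fold change was the rule of the paper's methods. The mean over both siRNAs was tested with limma (lmFit, eBayes, Benjamini-Hochberg), a procedure checked on simulated data. Named genes were the members, the rest of the family, SUB1, MTF1, SLC30A1 and, from the lists for zinc, copper, NRF2 and glucocorticoid genes, the 3 with the largest absolute mean ratio and those past 2-fold, and the 5 nearest by likeness. Members and lists were chosen with earlier results of these data known. Precision is limited by having 1 array for each siRNA. Some of the marker genes looked at are not reported here.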

Additional observations from a re-analysis of the deposited data

Results flagged for a closer look

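The log2 ratio of each member gene at its brightest probe lay above 0 with siRNA 1 and below 0 with siRNA 2, beyond the spot SD on both arrays with loess (MT1A with siRNA 1 was within it, at 0.021, with Feature Extraction's processed signals), and the difference between the siRNAs was not tested, since each has 1 array. The siRNA 2 ratio less the siRNA 1 ratio was -0.66 for MT1A, -0.84 for MT1E, -1.05 for MT1F, -0.84 for MT1G, -0.81 for MT1H, -0.85 for MT1X and -0.83 for MT2A. The same held for 2 further family probes, at -0.97 for MT1B and -0.86 for MT1L. These probes can share RNA by cross-hybridisation, so they are not 9 separate observations, and how much each gene contributes was not tested.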

How the results depend on the processing

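No value of the members at their brightest probe changed direction under an alternative except with median centring in place of loess. There MT2A with siRNA 2 became 0.37 and MT1H with siRNA 2 became 0.013, the latter inside the spot SD. Of 140 such values, 2 were reversed and 1 crossed 2-fold. Keeping outlier spots, changing the filter on dim probes and taking 1 probe for each gene could not change these values. Agreement under those alternatives was therefore fixed in advance. Over all member probes, 2 of 12 were at least 2-fold changed with siRNA 1 under median centring, against 0 with loess. Both were probes of MT2A and so stand for 1 gene. The share of all kept probes past 2-fold with median centring is not given here. Median centring moved the member median to 0.72 with siRNA 1 and -0.11 with siRNA 2, and the median of the mean over both siRNAs from -0.11 to 0.29. It also moved the median of all kept probes to 0.11 with siRNA 1 and 0.10 with siRNA 2, and the share of all kept probes above 0 to 66.4% and 65.3%. Relative to these medians, the members kept the same distance between the siRNAs. Feature Extraction's processed signals gave a member median of 0.21 with siRNA 1, moved MT1A with siRNA 1 from 0.15 to 0.021, inside the spot SD, and moved MT2A with siRNA 2 from -0.15 to -0.44. With 1 probe for each gene, 7 of 7 genes were above 0 with siRNA 1 and 7 of 7 below 0 with siRNA 2. Of all genes, 54.1% were above 0 with siRNA 1 and 53.6% with siRNA 2. These 7 probes are among the 12 already counted, so this result was fixed in advance. A median counted as moved beyond the spot SD. The number of member probes past an adjusted p of 0.05 was 0 under all 12 alternatives. No paired analysis was possible because the comparison has 1 array per siRNA, with its control in the other channel. With 1 array left out the test has no residual degrees of freedom, and the value is the ratio with the other siRNA. Both arrays were on 1 slide, so slide could not be a block. Single spots and 1 array for each siRNA limit what can be said of any member alone.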

Other observations

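Some single genes of the lists, chosen here after their values were seen, also separated the siRNAs. Genes above 0 with siRNA 1 and below 0 with siRNA 2 numbered 3084 of all 19218. They numbered 3 of 19 for zinc, 2 of 12 for copper, 3 of 17 for NRF2 and 1 of 10 for glucocorticoids. In these lists the median of siRNA 2 minus siRNA 1 was -0.047, -0.13, 0.0029 and 0.24, against -0.0021 for all genes. SLC39A4, a zinc importer, had log2 ratios of 0.31 (siRNA 1) and -0.36 (siRNA 2). SOD1, the copper and zinc superoxide dismutase, had 0.097 and -0.54, and the peroxiredoxin PRDX1 had -0.042 and -0.64. DUSP1, a phosphatase gene induced by glucocorticoids and by stress, went the other way, at -0.58 with siRNA 1 and 0.92 with siRNA 2. It was the only gene of the 4 lists for which the siRNAs differed by more than 2-fold, against 242 of all 19218 genes. None of these differences has a test.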
